A study of Homo sapiens with 12 samples.

Results

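The 10 genes described here mark intestinal identity and epithelial differentiation: CDX1, CDX2, VIL1, LGALS4, KRT20, CEACAM5, CEACAM6, GPA33, EPCAM and PHGR1. They were taken by name from the 57736 genes of the count files, and each gene's count is the sum over its regions. RNA was measured in 2 human cancer cell lines, Ls174 from an intestinal (colon) tumour and HepG2 from a liver tumour, both labelled as wild type. Cells of each line were cultured for 24 h without or with HME, an extract of the red seaweed Hypnea musciformis, at 0.7 mg/ml according to the labels (the study's methods give a slightly higher concentration), with 3 biological replicates per group and 12 libraries in all. All groups share the same culture medium with fetal bovine serum; whether serum was present during the treatment for RNA is not given in the sources used here. The comparison asks how the seaweed extract altered these genes in the intestinal line, with HepG2 cells as the background level.

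The epithelium of the intestine is renewed from stem cells at the base of the crypts, and its cells differentiate as they move upwards. CDX1 and CDX2 are homeobox transcription factors that set and maintain intestinal identity, and CDX2 is widely used as a marker of intestinal tumours. The other genes encode proteins of the differentiated or surface epithelium, among them villin of the brush border (VIL1), a lectin of the apical membrane (LGALS4), an intermediate filament protein (KRT20) and surface glycoproteins used as tumour antigens (CEACAM5, CEACAM6, GPA33, EPCAM).

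Because CDX1 and CDX2 bind AT-rich sites that hold the letters TTTAT, the 250 bases before the start of the members were read, where present, from RefSeq (GRCh38.p14), which gave 6 of the 10. The sequences of 4 genes are shown 5′ to 3′ on the gene's strand, with each TTTAT, or its reverse complement ATAAA, in capitals: CDX2 itself and KRT20, which hold the letters, and LGALS4 and GPA33, which do not.
CDX2: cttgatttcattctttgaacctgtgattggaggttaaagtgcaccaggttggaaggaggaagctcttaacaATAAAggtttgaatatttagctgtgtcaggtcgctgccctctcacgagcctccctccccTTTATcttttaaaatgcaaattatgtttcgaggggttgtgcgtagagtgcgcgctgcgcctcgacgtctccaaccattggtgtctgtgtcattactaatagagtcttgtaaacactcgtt
KRT20: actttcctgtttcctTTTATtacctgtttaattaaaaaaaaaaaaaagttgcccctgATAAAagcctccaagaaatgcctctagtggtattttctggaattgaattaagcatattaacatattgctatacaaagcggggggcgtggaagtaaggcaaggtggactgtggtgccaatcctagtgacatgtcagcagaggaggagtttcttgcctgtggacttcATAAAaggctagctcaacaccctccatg
LGALS4: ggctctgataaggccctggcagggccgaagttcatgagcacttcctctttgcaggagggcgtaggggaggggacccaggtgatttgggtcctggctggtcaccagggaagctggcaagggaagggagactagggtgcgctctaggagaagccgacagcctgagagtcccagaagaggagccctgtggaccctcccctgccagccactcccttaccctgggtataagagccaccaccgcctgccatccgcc
GPA33: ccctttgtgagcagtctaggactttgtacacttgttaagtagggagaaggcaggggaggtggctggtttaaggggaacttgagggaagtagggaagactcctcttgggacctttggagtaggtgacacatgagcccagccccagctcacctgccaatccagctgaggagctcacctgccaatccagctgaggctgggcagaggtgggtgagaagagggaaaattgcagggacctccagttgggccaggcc
These stretches lie on the minus strand at chr13:27969316-27969565 (CDX2), chr17:40885243-40885492 (KRT20), chr19:38812946-38813195 (LGALS4) and chr1:167090378-167090627 (GPA33). CDX2 held 2 matches, whose first letters lie 179 and 120 bases before its start, and KRT20 held 3, at 235, 193 and 28 bases. CEACAM5 and CEACAM6, not printed, held 1 match each, and the one of CEACAM6 lies inside the letters TATAAA, which begin 139 bases before its start. The letters TGATAA, bound by GATA factors, were found on either strand in LGALS4 and in KRT20, where they overlap ATAAA. Of 35116 upstream stretches of the same length, 32.7% held TTTAT on either strand and 6.66% held TGATAA, so a match is common and is given as a description of the sequence.

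The libraries were made from the 3′ ends of transcripts and held between 1790841 (HepG2 HME 3) and 3656662 (HepG2 control 1) counts. Levels are given in CPM, the count divided by the library's total and scaled to 1e+06, with edgeR's TMM factors over the 12 libraries; since each transcript gives reads from its 3′ end, CPM was not divided by length. A count of 3, used as the floor, corresponded to between 0.763 and 1.86 CPM. All 10 hepatocyte markers examined were lower in Ls174 control than in HepG2 control cells at an adjusted p under 0.05, as were 14.2% of all genes. Their log2 fold changes lay between -10.46 and -7.61. HepG2 cells thus carried the liver markers of their label. The summed count of these markers was 1 in Ls174 control 1, 1 in control 2 and 554 in control 3. The markers passed the filter through HepG2 cells, so their calls follow in part from it. Their summed level ranged from 24198 to 29849 CPM in HepG2 control and from 17725 to 19278 CPM in HepG2 HME libraries. It was 0.489, 0.309 and 141 CPM in Ls174 control 1, 2 and 3, and 80.4, 0.353 and 9.8 CPM in Ls174 HME 1, 2 and 3. Their part in the results was not tested. Calls of members, and calls of other genes at the adjusted limit, that were lost without Ls174 control 3 and HME 1 are named below. Ls174 control 1 stood apart from the other Ls174 controls for most members, and values without it are given for the members and for the counts of most gene lists.

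In untreated Ls174 cells EPCAM was the most abundant of the 10 genes, at 531 ± 82.1 CPM (mean ± SD, n = 3), place 262 among 20176 genes with a count. CDX1 followed at 141 ± 56.4 CPM, and its lowest control library lay above the highest of CDX2. CDX2 (72.1 ± 35.3 CPM), PHGR1 (68.0 ± 28.9 CPM), LGALS4 (67.3 ± 35.2 CPM) and VIL1 (62.5 ± 18.7 CPM) came next, and their ranges overlapped, so their order was within the spread. GPA33 lay below all of these at 16.5 ± 3.30 CPM, CEACAM5 reached 2.90 ± 2.53 CPM and CEACAM6 0.545 ± 0.513 CPM, the last pair again with overlapping ranges. KRT20 had no count in any Ls174 control library, where 3 counts would have been between 0.763 and 1.47 CPM.

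**Figure D1:**
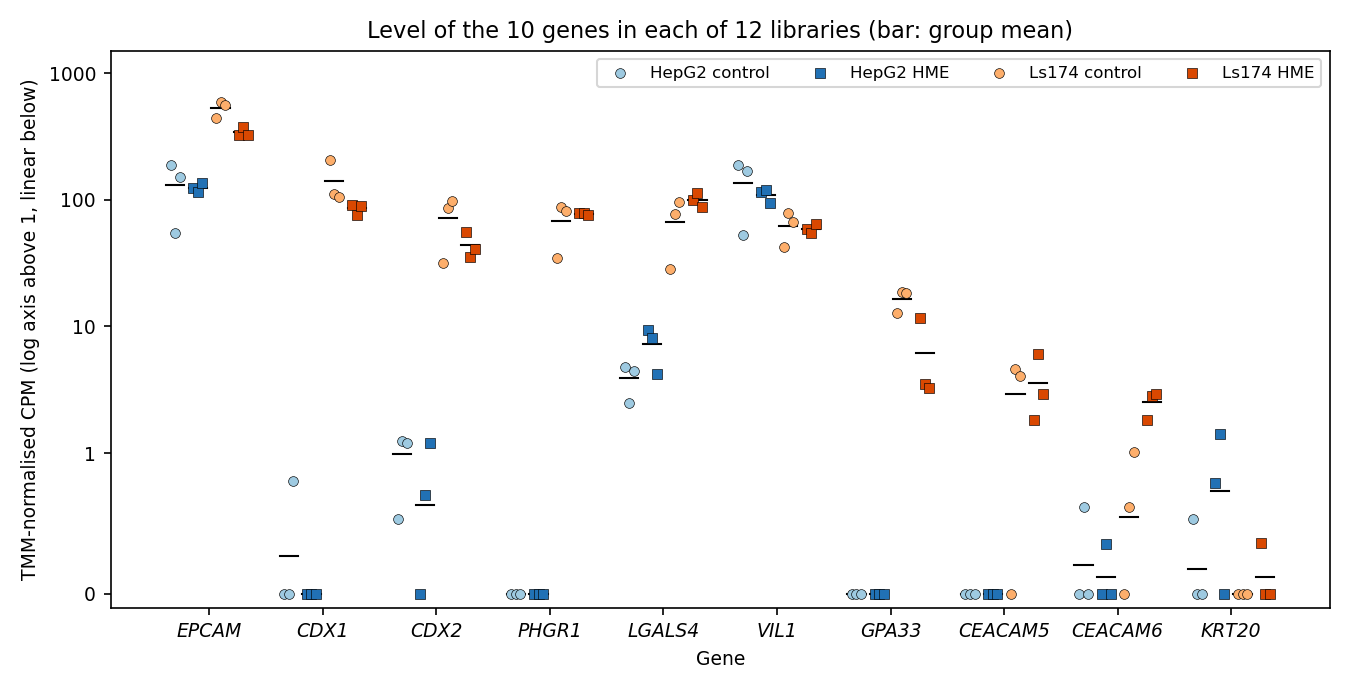
Level of each gene in the 12 libraries, in TMM-normalised CPM on an axis that is logarithmic above 1 and linear below it, with circles for control, squares for HME and a bar at the mean of each group. EPCAM and VIL1 lie above 50 CPM in every HepG2 library, PHGR1, GPA33 and CEACAM5 have no count there, and for EPCAM, CDX1 and GPA33 all 3 Ls174 HME libraries lie below all 3 Ls174 controls.

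Set against HepG2 control cells, 6 of the 7 members that could be tested were higher in Ls174 control cells at an adjusted p under 0.05 by edgeR's quasi-likelihood test with Benjamini-Hochberg adjustment over 11907 genes, and the groups of these 6 did not overlap. Among all genes tested, 9.33% were higher at that limit, 14.2% were lower, and 20.3% were higher with groups that did not overlap. CDX1, CDX2, PHGR1 and GPA33 had at most 3 counts in any HepG2 control library and passed the filter through Ls174 cells alone. Their calls and lack of overlap follow in part from that filter, so the count of 6 is no test of the list. With at least 10 counts required in every library, they were not tested. CDX1 had 0, 0 and 2 counts in the HepG2 control libraries, and its summed count per library size was 509-fold higher in Ls174 control cells (95% counting interval 141 to 4205). CDX2 had 2, 2 and 3 counts in them, a ratio of 88.8 (42.9 to 222). PHGR1 and GPA33 had no HepG2 count, which makes them at least 36.6-fold and at least 8.89-fold higher against a floor of 3 counts per library. LGALS4 was higher by 4.03 on the log2 scale (SE 0.55, adjusted p = 0.000841) and EPCAM by 1.99 (SE 0.46, adjusted p = 0.0125), both by edgeR. CEACAM5, which was not tested in this comparison, was at least 1.56-fold higher by the same floor, although Ls174 control 1 had none.

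VIL1 was the exception, with a higher mean in the liver line. Its levels were 187, 52.6 and 167 CPM in HepG2 control 1, 2 and 3 and 42.0, 78.7 and 66.7 CPM in the Ls174 controls, so the groups overlapped through HepG2 control 2. The log2 fold change of Ls174 against HepG2 was -1.14 (SE 0.48), with an adjusted p of 0.128 by edgeR. Without HepG2 control 2 it was -1.52 and passed the adjusted limit. The main VIL1 region (chr2:219314060-219318215 of hg19, 3′ UTR) overlaps a region of USP37, a ubiquitin protease gene on the opposite strand, whose own region held 78, 75, 104 and 54 summed counts in HepG2 control, HepG2 HME, Ls174 control and Ls174 HME cells against 1184, 762, 603 and 507 for VIL1; how strand was used in the counting is not given in the sources used here, so reads of both genes cannot be told apart.

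With HME, 3 members of the 8 tested in Ls174 cells were lower at the thresholds used in the study (p under 0.05 without adjustment, and more than 0.58 on the log2 scale), and none was higher. They were CDX1, GPA33 and EPCAM, with 1.66-fold, 2.72-fold and 1.56-fold lower levels. Among the 11319 genes tested, 7.85% were lower and 4.11% higher by the same thresholds, and 12.2% were lower with groups that did not overlap, as was the case for these 3. At an adjusted p under 0.05, edgeR called none of the members and DESeq2 none either, with 3 at an unadjusted p under 0.05 in edgeR, while 0.866% of all genes were lower and 0.318% higher at the adjusted limit. The median log2 fold change of the 8 members was -0.37, beside -0.0029 for all genes tested. With all 10 members in the fit it was above 0, at 0.059 with DESeq2 and at 0.052 with edgeR on all genes of at least 1 count. In bulk RNA, fewer cells of a kind and less RNA per cell cannot be told apart.

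The transcription factor CDX1 was measured in a single region, at chr5:149563244-149564317 of hg19 in the 3′ UTR. Its levels were 206, 111 and 105 CPM in Ls174 control 1, 2 and 3 and 90.9, 76.3 and 89.2 CPM in HME 1, 2 and 3. All HME libraries lay below all controls, but control 1 stood far above the other controls. The log2 fold change was -0.73 (SE 0.29, adjusted p = 0.333 by edgeR). Without control 1 it was -0.33 and passed neither threshold, and it also missed the study's thresholds without any one of the HME libraries. In HepG2 cells CDX1 had no count in the HME libraries and CDX2 had 0, 2 and 2, so both stayed at the floor and were not tested there.

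CDX2, the partner factor, was counted in its 3′ UTR at chr13:28536077-28537251, a region that ends before the annotated end of the gene at 28535055 on the minus strand. Its levels were 31.8, 86.7 and 97.7 CPM in control 1, 2 and 3 and 55.8, 35.3 and 40.5 CPM in the HME libraries. Controls 2 and 3 lay above every HME library and control 1 below all of them, the opposite of its place for CDX1. The log2 fold change was -0.73 (SE 0.39, adjusted p = 0.451 by edgeR), with a 95% interval from -1.61 to 0.15. Without control 1 it was -1.07, with an adjusted p of 0.00184.

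By the root mean square difference of centred log2 CPM over the 12 libraries, the genes outside the list whose pattern was nearest to CDX1 among 13040 genes were FABP6, a bile acid binding protein of the ileum (0.37), CLRN3 (0.39) and EN1, a homeobox factor (0.39). Those nearest to CDX2 were WLS, which carries Wnt proteins to the surface (0.41), GABRA3 (0.44) and KIAA0226L (0.48). All 6 were at or below a mean of 0.268 CPM in the HepG2 groups. Their likeness rests mostly on this difference between the lines, which the 12 libraries share: FABP6 had 128 ± 55.9 CPM in Ls174 control and 141 ± 28.3 CPM in HME cells, where CDX1 was lower with HME.

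GPA33, a surface antigen of the intestinal epithelium and of most colon tumours, showed the largest difference among the 8 members tested. Of its 210 counts, 208 lay in chr1:167021876-167023570 of hg19, its 3′ UTR and the 197 bases past it. Its levels were 12.7, 18.5 and 18.3 CPM in the Ls174 controls and 11.6, 3.53 and 3.27 CPM in HME 1, 2 and 3. All HME libraries lay below the controls, HME 1 only just so. These values rest on 26, 60 and 72 counts in the controls and on 32, 10 and 10 in the HME libraries. The log2 fold change was -1.45 (SE 0.51, adjusted p = 0.275 by edgeR), and -2.27 without HME 1, with an adjusted p of 0.162. Without control 1 it was -1.59 with an adjusted p of 0.0226, and without either of the other controls, HME 2 or HME 3 it missed the study's thresholds.

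EPCAM, an adhesion molecule of the lateral membrane of epithelial cells, gave the most counts of the 10 genes, with 99.04% of them in the region chr2:47613753-47614370 at its 3′ end. Its levels were 438, 592 and 564 CPM in the Ls174 controls and 326, 375 and 324 CPM in the HME libraries, without overlap. The log2 fold change was -0.64 (SE 0.20, adjusted p = 0.211 by edgeR), and -0.75 without control 1, with an adjusted p of 0.0074. It was -0.56 without control 2 and -0.57 without the pair with most hepatocyte reads, Ls174 control 3 and HME 1, in both cases inside the fold limit of 0.58, and it missed the p limit without HME 3. In HepG2 cells its levels were 189, 54.5 and 151 CPM in the controls and 123, 115 and 135 CPM with HME, a log2 fold change of -0.05 (SE 0.41). The difference between the lines in the response of EPCAM was -0.55 (SE 0.50, 95% interval -1.62 to 0.52) and did not pass the test of the interaction.

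**Figure D2:**
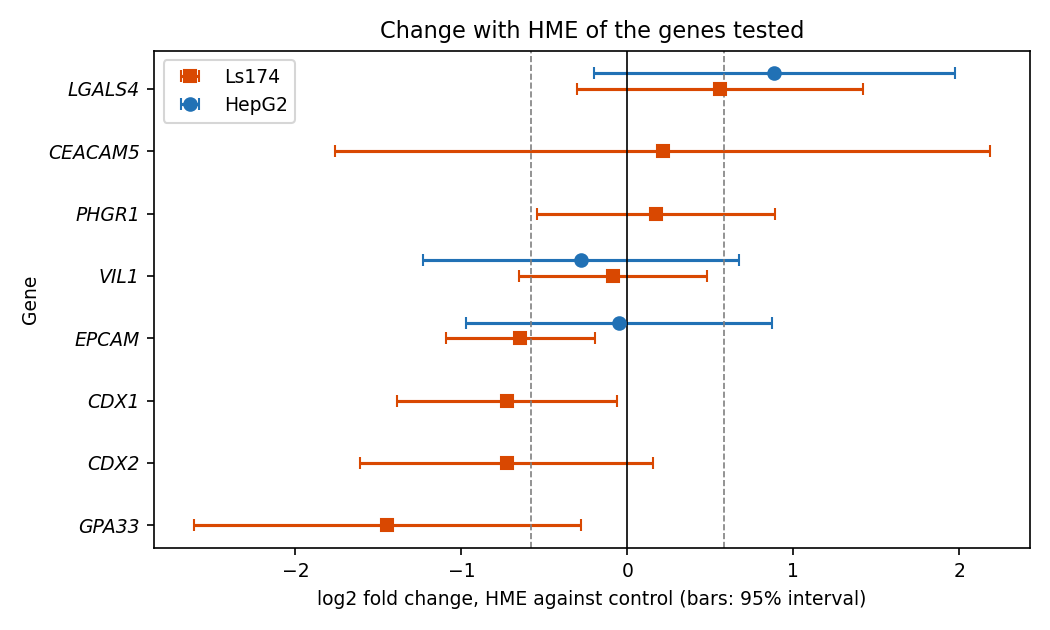
Log2 fold change with HME of each member that could be tested, squares for Ls174 and circles for HepG2, with 95% intervals and dashed lines at the fold limit of 0.58. The intervals of CDX1, EPCAM and GPA33 in Ls174 cells lie below 0, and those of the other 5 members, and of all 3 in HepG2 cells, include 0.

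The remaining tested members passed neither threshold in Ls174 cells. PHGR1, a small histidine- and glycine-rich protein of the intestinal epithelium, was counted in chr15:40648505-40648832, with 34.7, 87.3 and 81.9 CPM in the controls and 77.9, 78.8 and 75.1 CPM in the HME libraries. The HME libraries were close together between control 1 and the other controls, and the log2 fold change was 0.17 (SE 0.31, 95% interval -0.54 to 0.89). VIL1 had 58.3, 54.4 and 64.7 CPM with HME against the control values given above, a log2 fold change of -0.09 (SE 0.25, 95% interval -0.65 to 0.48). All VIL1 values with HME lay between those of control 1 and control 3, the lowest controls.

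The carcinoembryonic antigen genes were rare in these cells. CEACAM5 (chr19:42233104-42233915) had 0, 15 and 16 counts in the Ls174 controls and 5, 17 and 9 with HME, and its log2 fold change of 0.21 (SE 0.86) had a 95% interval from -1.76 to 2.18. CEACAM6 (chr19:42274707-42276310) had 0, 2 and 4 counts in the controls and 5, 8 and 9 with HME and was not tested in the fit. Its HME libraries, at 1.81, 2.83 and 2.94 CPM, lay above the controls, at 0, 0.617 and 1.02 CPM. The two-sided exact permutation test of the 3 against 3 libraries, run on this gene alone, gave p = 0.1, the smallest it can give. Any 3 against 3 libraries without overlap give this value, so the test cannot decide whether CEACAM6 differed. The control counts lay at or near the floor. CEACAM5 and CEACAM6 are close paralogs, and how reads with several alignments were counted is not given in the sources used here, so their split is uncertain. KRT20, a keratin of differentiated intestinal cells, was counted at chr17:39031996-39032612 and had 1 count in all 6 Ls174 libraries together. In the HepG2 controls it had 2, 0 and 0 counts and with HME 2, 4 and 0, too few to show a difference at this depth.

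LGALS4 was the only one of the 3 members tested in both lines whose fold change was above 0 in each. It had 28.3, 76.8 and 96.7 CPM in the Ls174 controls and 99.6, 113 and 87.5 CPM with HME. Its log2 fold change was 0.56 (SE 0.38, adjusted p = 0.545 by edgeR), and 0.21 without control 1, the lowest library. In HepG2 cells it had 4.81, 2.48 and 4.42 CPM in the controls and 9.44, 8.08 and 4.18 CPM with HME, a difference of 0.89 on the log2 scale (SE 0.49, adjusted p = 0.309 by edgeR). The groups overlapped in both lines.

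The reads of LGALS4 came from different regions in the lines. In Ls174 cells, 581 counts in the controls and 669 with HME lay in the region at its 3′ end (chr19:39292114-39292550), where HepG2 cells had 3 and 2. In HepG2 cells, 30 of 33 counts in the controls and 52 of 54 with HME lay in a region of 197 bases inside an intron (chr19:39293463-39293659), so the HepG2 level of the gene is not that of its annotated 3′ end. In Ls174 cells the intronic region had 6.37 ± 1.28 CPM in the controls and 14.9 ± 2.65 CPM with HME, and these groups did not overlap. The 3′-end region had 56.6 ± 31.1 and 77.5 ± 8.70 CPM, and its groups overlapped. The regions were compared after their values were seen, and no test was run on them.

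**Figure D3:**
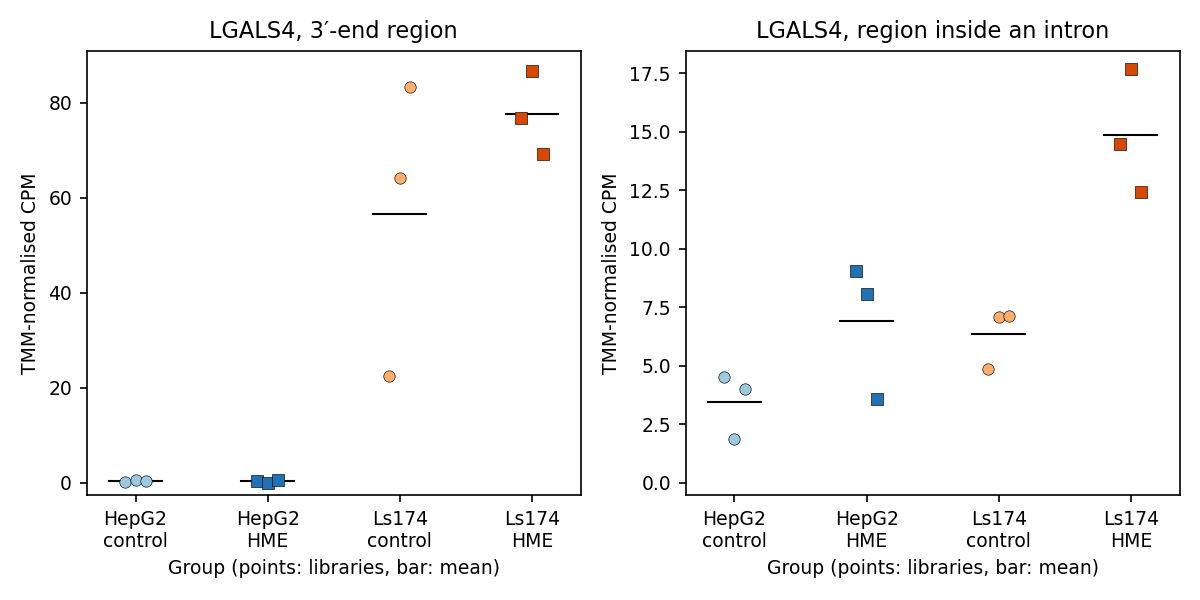
LGALS4 in TMM-normalised CPM per library, for the region at the 3′ end of the gene (left) and a region inside an intron (right), with a bar at each group mean; the vertical axes differ. The 3′-end region is near 0 in all 6 HepG2 libraries, and the intronic region is present in every library of both lines.

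Of the members, 3 passed the filter in HepG2 cells under HME, VIL1, LGALS4 and EPCAM, and none was called in either direction by edgeR at the study's thresholds or at the adjusted limit, nor by DESeq2. There, 11.3% of the 11343 genes tested were higher and 10.9% lower at the study's thresholds, and 2.77% were higher at the adjusted limit. VIL1 had 115, 119 and 93.7 CPM with HME, a log2 fold change of -0.28 (SE 0.43). HepG2 control 2 lay below all HME libraries and the other controls above them, and without it VIL1 passed the study's thresholds at -0.63, with an adjusted p of 0.125. The interaction of line and treatment is given for the same 3 genes, since the others were at or near 0 in HepG2 cells. It was 0.23 (SE 0.54) for VIL1 and -0.30 (SE 0.61) for LGALS4. The value of LGALS4 sets mostly 3′-end reads of Ls174 cells against mostly intronic reads of HepG2 cells. It therefore does not compare the same region in both lines. No member was called in the interaction by edgeR or DESeq2, where 13.2% of 13040 genes passed the study's thresholds and 0.644% the adjusted limit.

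Leaving out single libraries showed how far the Ls174 values rest on control 1. Without it, EPCAM, GPA33 and CDX2 were lower at an adjusted p under 0.05 by edgeR, 3 of 8 members, and 5.33% of 11673 genes were lower at that limit. Without any other single library of this line no member passed the adjusted limit, and the number at the study's thresholds was between 0 (without HME 3) and 2. CDX1 alone passed them without control 2, CDX1 and EPCAM without control 3, EPCAM and GPA33 without HME 1, and EPCAM without HME 2.

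**Figure D4:**
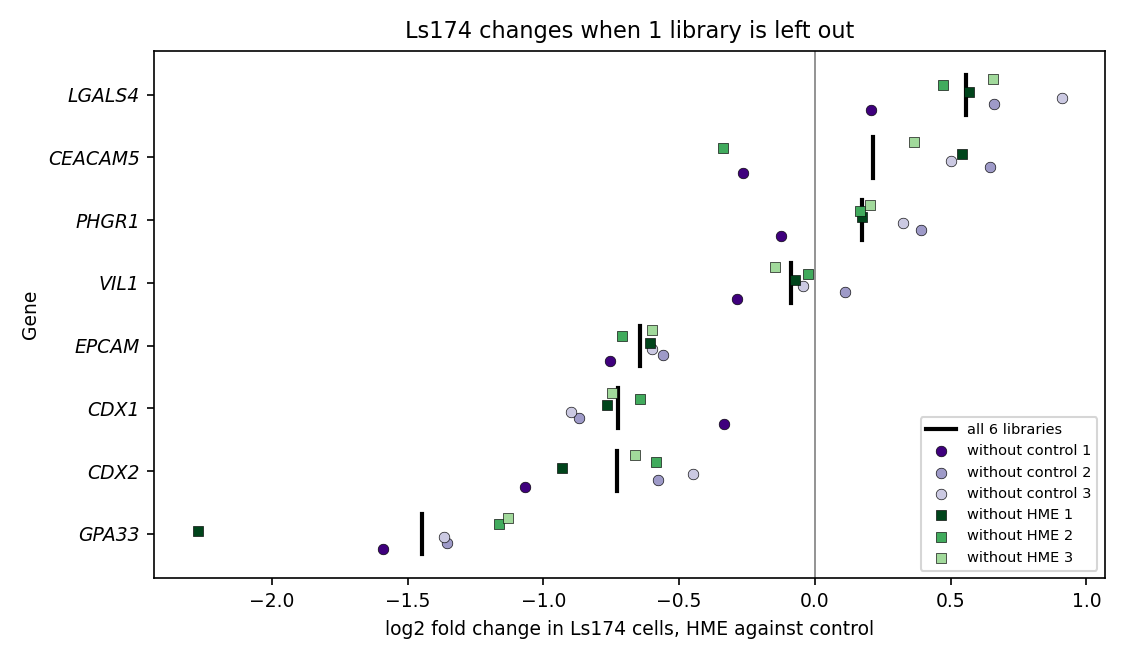
Log2 fold change in Ls174 cells of the 8 tested members with all 6 libraries (black line) and without each library in turn (circles for controls, squares for HME). GPA33, CDX2, CDX1 and EPCAM lie below 0 in all 7 fits; leaving out control 1 moves CDX1 towards 0 and CDX2 away from it, and CEACAM5, PHGR1 and VIL1 change sign in at least 1 fit.

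The genes around the members were examined by lists written from general knowledge. Of the genes of epithelial junctions and EPCAM partners, 25 of 26 were tested in Ls174 cells, 8 were lower and none higher at the study's thresholds, and 2 were lower at the adjusted limit, with a median log2 fold change of -0.38. OCLN, the tight junction protein occludin, fell from 34.7, 30.2 and 27.7 CPM to 10.1, 8.48 and 8.16 CPM, by -1.79 on the log2 scale (SE 0.26, adjusted p = 0.0302 by edgeR). DSC2, the desmosomal cadherin desmocollin, fell from 94.3, 82.4 and 84.0 CPM to 32.2, 29.0 and 44.7 CPM, by -1.30 on the log2 scale (SE 0.23, adjusted p = 0.0392 by edgeR). In neither gene did the groups overlap. The others at the study's thresholds were CLDN1, CLDN2, CLDN12, F11R, MARVELD2 and ST14, among them claudins of the tight junction and the membrane protease matriptase (ST14), between -1.81 for CLDN2 and -0.63 for F11R. CLDN7, which binds EPCAM, had a log2 fold change of 0.15 (SE 0.29). Without control 1, 10 junction genes were lower at the study's thresholds and 7 at the adjusted limit of edgeR, which were OCLN, DSC2, DSG2, ST14, F11R, CLDN1 and CLDN2.

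Of the keratins of simple epithelia other than KRT20, 3 of 6 were tested, and 2 were higher at the study's thresholds and 1 at the adjusted limit. KRT8 rose from 67.5, 101 and 103 CPM to 230, 227 and 205 CPM, by 1.28 on the log2 scale (SE 0.21, adjusted p = 0.0357 by edgeR). Its partner KRT18 had 479, 326 and 431 CPM in the controls and 608, 1463 and 1076 CPM with HME (1.34, SE 0.33, adjusted p = 0.115). The groups of both genes did not overlap, and KRT19 had a log2 fold change of 0.42 (SE 0.17). Without control 1, 5 keratins were tested, and KRT8 and KRT18 were higher at the adjusted limit, as they were with DESeq2.

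**Figure D5:**
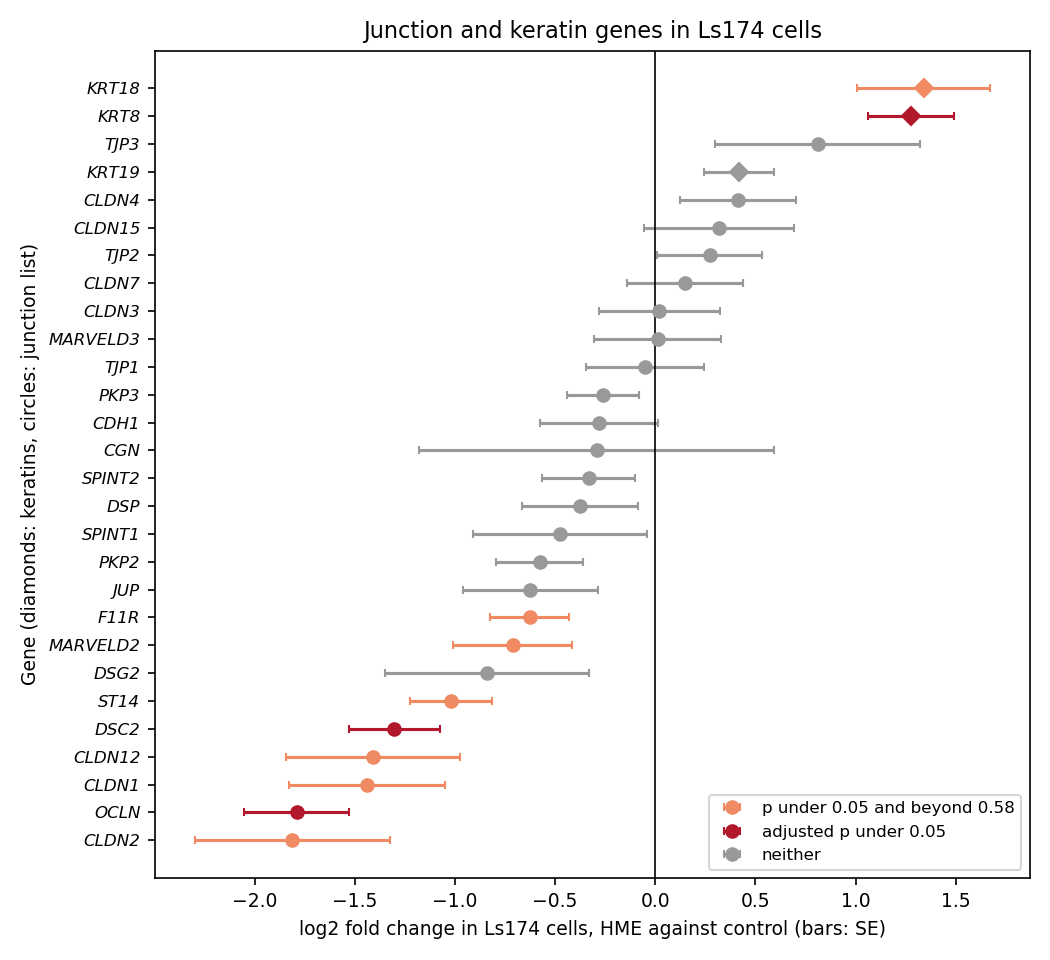
Log2 fold change with HME in Ls174 cells of the 25 tested junction genes (circles) and 3 tested keratins (diamonds), with SE bars, coloured by the threshold each passed. OCLN (-1.79), DSC2 (-1.30) and KRT8 (1.28) passed the adjusted limit, and 18 of the 25 junction genes lie below 0, 7 lie above it, and the 3 keratins lie above it.

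Of 22 genes of other intestinal cell types, 7 were tested and 2 were lower at the adjusted limit. OLFM4, a marker of crypt stem cells, fell from 45.0, 48.7 and 56.5 CPM to 20.3, 17.3 and 18.3 CPM (log2 fold change -1.43, SE 0.21, adjusted p = 0.0310 by edgeR). SMOC2, another crypt base gene, fell from 211, 253 and 199 CPM to 104, 95.8 and 83.0 CPM (log2 fold change -1.24, SE 0.20, adjusted p = 0.0344 by edgeR). LGR5 was lower at the study's thresholds, at -1.97, and passed the adjusted limit beside OLFM4 and SMOC2 without control 1 and with DESeq2. Without any one library of Ls174 other than control 1, and without the pair with most hepatocyte reads (control 3 and HME 1), no gene of these lists passed the adjusted limit of edgeR, so that OCLN, DSC2, KRT8, OLFM4 and SMOC2 all missed it. KRT8 also missed it with scaling by library size alone. In 1 fit of all 12 libraries OCLN and DSC2 passed and KRT8, OLFM4 and SMOC2 did not, and with the replicate number as a block none of these genes passed.

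The intestinal transcription factors other than CDX1 and CDX2 gave no call by edgeR in the 6 libraries of Ls174, with 15 of 19 tested and a median log2 fold change of -0.32, and none passed the adjusted limit of DESeq2, which called 1 factor higher at the study's thresholds. Without control 1, 2 of the 15 were lower at the study's thresholds, and HNF4A, a nuclear receptor of liver and intestine, was lower at the adjusted limit of edgeR. The most abundant were SOX9, at -0.19 (SE 0.29), and KLF5, at -0.32 (SE 0.21). In HepG2 cells KLF5, a zinc finger factor of the intestinal epithelium, rose from 1.60, 1.24 and 1.61 CPM to 52.3, 35.8 and 41.2 CPM. Its log2 fold change was 4.81 (SE 0.41, adjusted p = 0.000676 by edgeR). The HepG2 controls held 6, 2 and 4 counts of KLF5, near the floor, so the size of this change is uncertain. KLF5 was the only 1 of 11 tested factors at the adjusted limit of edgeR. At the study's thresholds 2 of the 11 were higher and none lower, with a median log2 fold change of -0.18. The other was ELF3 (1.68, SE 0.46, adjusted p = 0.0774 by edgeR). ELF3 passed the adjusted limit with DESeq2 and in 1 fit of all 12 libraries. Against HepG2 controls, 6 of 17 tested factors were higher in Ls174 controls at the adjusted limit and 3 were lower. Of all genes tested, 9.33% were higher and 14.2% lower. KLF5 (5.50 on the log2 scale, with the same low HepG2 counts) and GRHL2 were among the higher factors and GATA4 among the lower. GRHL2 had no count in any HepG2 control, and GATA4 had none in any Ls174 control. Each passed the filter through 1 line alone, so these calls follow in part from the filter and no fold is given.

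Of the brush border genes, 11 of 17 were tested in Ls174 cells. PDZK1, a scaffold protein (1.90, SE 0.74), and BAIAP2L1, an actin regulator (0.65, SE 0.21), were higher at the study's thresholds but not at the adjusted limit. PDZK1 had 0, 12 and 7 counts in the controls and 22, 20 and 22 with HME. Only 1 brush border gene was higher at these thresholds without control 1 or without any one HME library. The same held with the replicate number as a block and without the pair of control 3 and HME 1. In HepG2 cells 12 were tested, and STX3, a syntaxin of the apical membrane (2.11, SE 0.34, adjusted p = 0.0108), and BAIAP2L1 (1.96, SE 0.42, adjusted p = 0.0366) were higher at the adjusted limit of edgeR. At the study's thresholds 4 of these 12 were higher and 2 lower, with a median log2 fold change of 0.061. Of 19 absorptive enterocyte and colonocyte genes 4 were tested in Ls174 cells, and CDH17, the liver-intestine cadherin, was lower at the study's thresholds (-1.25, SE 0.45). It missed them with the replicate number as a block, without the pair of control 3 and HME 1, and without any one library other than control 1, while without control 1 CDH17 and TSPAN8, a tetraspanin, were lower at the adjusted limit. FABP1 had 0, 1.85 and 10.4 CPM in Ls174 control 1, 2 and 3 and 12.3, 9.19 and 10.5 CPM with HME, a higher mean without a call. Without control 3, and without the pair of control 3 and HME 1, 1 gene of this list was higher at the study's thresholds. The 15 absorptive genes not tested, among them SI, ALPI, SLC26A3 and CA1, had at most 3 counts in each Ls174 library. Among galectins other than LGALS4, 3 of 13 were tested in Ls174 cells with no call. In HepG2 cells LGALS3 rose by 2.14 (SE 0.34, adjusted p = 0.0108 by edgeR), the only 1 of 6 at the adjusted limit. At the study's thresholds 2 of the 6 were higher and 2 lower, with a median log2 fold change of -0.32. LGALS2 had 39.5 ± 13.0 CPM in HepG2 control and 13.0 ± 2.99 CPM in HepG2 HME cells, and DESeq2 called it lower at the adjusted limit. Of the junction genes 18 were tested in HepG2 cells, 1 was higher (CLDN4, 2.00) and 4 were lower (CDH1, CLDN1, PKP2 and TJP3, between -1.52 and -0.96) at the study's thresholds, and none passed the adjusted limit of edgeR, while DESeq2 called CLDN4. With single HepG2 libraries left out, KLF5 passed the adjusted limit in all 6 fits, STX3 missed it without control 3 or HME 3, LGALS3 without HME 2 or HME 3, and BAIAP2L1 without any library but control 2. Of the other CEACAM genes only CEACAM1 was tested in either line, at -0.54 (SE 0.51) in Ls174 cells.

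Markers of other cells were examined beside these values. In Ls174 cells no mesenchymal, blood or endothelial marker passed the filter, and their summed levels were at most 9.67 and 4.58 CPM in any library. In HepG2 cells the summed mesenchymal markers ranged from 910 to 1333 CPM in the controls and from 701 to 2047 CPM with HME. In the controls most of this sum was 1 gene, FN1, at 850, 1063 and 1276 CPM in HepG2 control 1, 2 and 3. With HME, FN1 had 1269, 984 and 648 CPM. ZEB1, a mesenchymal transcription factor, rose by 1.79 (SE 0.40, adjusted p = 0.0424 by edgeR). ZEB1 missed that limit without any library but control 2 and with scaling by library size or upper quartile. Of the 3 mesenchymal markers tested there, CDH2, the neural cadherin, was lower at the study's thresholds (-1.10, SE 0.33, adjusted p = 0.0987 by edgeR), and the median of the 3 was -0.13. The highest sum, 2047 CPM, was that of HepG2 HME 2, where COL1A1, COL1A2 and VIM had 548, 405 and 60.4 CPM, against at most 6.02 CPM in any other HepG2 library; the part of these reads in the results was not tested. The summed blood and endothelial markers of HepG2 cells ranged from 94.7 to 550 CPM in the controls. With HME they ranged from 395 to 549 CPM. Most of this sum was 1 gene, LYZ, at 443, 90.4 and 548 CPM in HepG2 control 1, 2 and 3. With HME, LYZ had 545, 393 and 429 CPM. PTPRC, a marker of white blood cells, had no count in any library.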

How the data were processed

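RNA from 12 cultures was sequenced as 3′ libraries (QuantSeq, Ion Proton). The authors aligned the reads to hg19 with Hisat2 and counted them with metaseqR2; the labels also name Bowtie2 and Trimmomatic, and no versions are given in the sources used here. The deposited files hold whole-number counts per 3′ region, without normalization, and the counts of 57736 genes were summed over their regions.

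Tests used edgeR 4.0.16 in R 4.3.3 (TMM, filterByExpr, quasi-likelihood F test), with the libraries of each comparison, no covariate, and Benjamini-Hochberg adjustment over all genes tested; the SE was derived from F. DESeq2 1.42.0, other scalings, filters and fits were alternatives. Scripts were tested on simulated data. Intervals of counts cover counting error only. P-values measure the spread between 3 cultures a group.

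The 10 genes, the lists and the tests were chosen with earlier results of these data known. Named were the members, in each list up to 4 genes with an adjusted p under 0.05 (otherwise up to 4 at the study's thresholds, otherwise the 2 most abundant), line markers, and for CDX1 and CDX2 the 3 nearest genes. CLDN7, KRT18, KRT19, LGR5, USP37, mesenchymal genes other than ZEB1, genes called only without control 1, the junction genes beyond the rule and the absorptive genes at the floor were added after their values were seen. LGALS2, FABP1, ELF3 and LYZ were also added after their values were seen. Upstream sequence came from RefSeq (GRCh38.p14); counts and regions are on hg19.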

Additional observations from a re-analysis of the deposited data

Results flagged for a closer look

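In 3 genes of the lists around the members, the HME effect differed between the lines by the interaction test of edgeR at an adjusted p under 0.05. Of all 13040 genes tested, 0.644% passed this limit. The effect in Ls174 cells minus that in HepG2 cells was -5.10 on the log2 scale for KLF5 (adjusted p = 0.000115). KLF5 rose in HepG2 cells from controls near the floor and had a log2 fold change of -0.32 in Ls174 cells. The difference was -2.29 for STX3 (adjusted p = 0.0168), which rose in HepG2 cells. For DSC2 it was -1.76 (adjusted p = 0.0382). DSC2 fell in Ls174 cells and had 57.8 ± 9.33 CPM in HepG2 control and 80.1 ± 7.75 CPM in HepG2 HME cells.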

How the results depend on the processing

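The counts of members called and the log2 fold changes were recomputed with other tools, scalings, filters and libraries. In Ls174 cells the number at the study's thresholds was 1 (GPA33) in 1 fit of all 12 libraries. It was 4, all lower, with all genes of at least 1 count, and between 0 and 3 with 1 library left out. At the adjusted limit it was between 0 and 3 (without control 1). The median of the tested members was 0.059 with DESeq2, 0.052 with all genes of at least 1 count, where rare members enter, -0.63 with at least 10 counts in every library, and between -0.46 and -0.23 with 1 library left out. In HepG2 cells the number at the study's thresholds was between 0 and 1 with 1 library left out. Between the controls, 7 members at the study's thresholds became 2, and 6 at the adjusted limit became 1, with at least 10 counts in every library, since genes absent from HepG2 were then not tested. With 1 library left out, the sign turned in Ls174 cells for CEACAM5 (-0.34 to 0.64), PHGR1 (-0.12 to 0.39) and VIL1 (-0.29 to 0.11), negative for CEACAM5 without control 1 (-0.27) or HME 2 and for PHGR1 without control 1, and positive for VIL1 without control 2. It turned in HepG2 cells for EPCAM (-0.38 to 0.29, with 0.05 and 0.02 without control 3 and HME 2) and VIL1 (-0.63 to 0.0076). In the interaction the sign turned for LGALS4 (-0.66 to 0.055) and VIL1 (-0.022 to 0.63), and the cause was not tested. With the largest region of each gene the interaction of LGALS4 was 0.83. That region held 3 summed counts in HepG2 control and 2 in HepG2 HME cells, so this value rests on counts at the floor.

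The replicate numbers did not pair the libraries: deviations of same-numbered control and HME libraries correlated between -0.05 and -0.01 in Ls174 and between -0.17 and 0.09 in HepG2 cells. With the replicate number as a block, the members called at the study's thresholds were 3 in Ls174, 0 in HepG2 and 6 between the controls, and EPCAM in HepG2 had 0.10 in place of -0.05. No gene was called at the adjusted limit in Ls174 cells under the block.

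With 26 to 72 counts of GPA33 in a control and at most 17 of CEACAM5 in any library, counting error is a large part of their spread. Leaving out Ls174 control 3 with HME 1 (2 members, CDX1 and GPA33, at the study's thresholds), leaving out Ls174 control 1 with HepG2 control 2 in the interaction (0 members) and the list counts without single libraries were chosen after seeing the data.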
